A study of Rattus norvegicus with 13 samples.

Results

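Skin-derived precursors (SKPs) grown from dorsal trunk skin were compared with SKPs grown from ventral trunk skin of adult Sprague Dawley rats. The comparison rests on 6 of the 13 arrays of the series, 3 titled dorsal SKPs and 3 titled ventral SKPs, chosen by their titles. Each array holds RNA of 1 isolate, and all cells had been passaged 2 times. The isolates of a region are described as independent, but the sources used here do not say how many animals gave an isolate, of which sex, or in which medium the cells grew. The other arrays, 3 of SKPs from facial skin and 4 of mesenchymal stromal cells (MSCs), entered the fit for its estimate of spread, and facial levels are given where they help to place a value. The labels name no treatment and no altered allele for any group.

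SKPs are dermal precursors that grow as floating spheres and share properties with neural crest cells. Trunk dermis has separate embryonic sources: that of the back comes from the dermomyotome of the somites, and that of the belly and flank from lateral plate mesoderm. Cells of these sources use different transcription factors. Zic and Pax genes mark dorsal somite derivatives, Tbx5 and Hand2 mark parts of the lateral plate, and Hox genes mark position from head to tail. Adult fibroblasts are known to keep part of such a positional code in culture. The series title asks whether one kind of dermal stem cell arises from such distinct origins.

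The dorsal arrays were less alike than the ventral ones, and dorsal array 3 stood apart. Levels are log2 values, so a difference of 1 is a 2-fold change. The median SD of a gene over 3 arrays was 0.20 in dorsal and 0.12 in ventral SKPs. Between 0.421% and 0.813% of 14506 genes differed by over 2-fold between 2 ventral arrays. This share was 2.07% between dorsal arrays 1 and 2, and 7.67% and 9.55% between dorsal array 3 and the other two. It was 3.62% to 5.94% between dorsal array 1 or 2 and a ventral array, so the difference of regions exceeded that between these isolates. For dorsal array 3 it was 9.95% to 10.5%. Results whose call, direction or size (by over 1.5 times) turned on dorsal array 3 are given with and without it. The number of arrays limits the precision of every value.

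Dorsal and ventral SKPs differed in 886 of 14506 genes (6.11%), of which 341 were higher in dorsal (2.35%) and 545 higher in ventral SKPs (3.76%). A gene is called where limma's Benjamini-Hochberg adjusted p over all genes was under 0.05. With a log2 difference of at least 1 as well, 283 genes were called (1.95%), 68 of them higher in dorsal (0.469%) and 215 higher in ventral SKPs (1.48%). In all 886 called genes the 3 dorsal and 3 ventral values did not overlap, as they did not in 4170 of all genes (28.7%). At an unadjusted p under 0.05 in the same fit there were 3113 of the 14506 genes, in either direction. Unadjusted counts of lists below are read against that share. The median difference (dorsal minus ventral) over all genes was 0.05. Without dorsal array 3, 900 genes were called and 611 of the 886 were among them. The count was 334 without ventral array 1, 465 without ventral array 2 and 327 without ventral array 3. Without dorsal array 1 it was 895 and without dorsal array 2 it was 790. In the full fit and without each of the 6 arrays in turn, 256 genes were called (1.76%), 59 higher in dorsal (0.407%) and 197 higher in ventral SKPs (1.36%). Genes named below as called kept their call without each of the 6 arrays unless it is said otherwise, and then the arrays are named with the adjusted p without them.

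**Figure D1:**
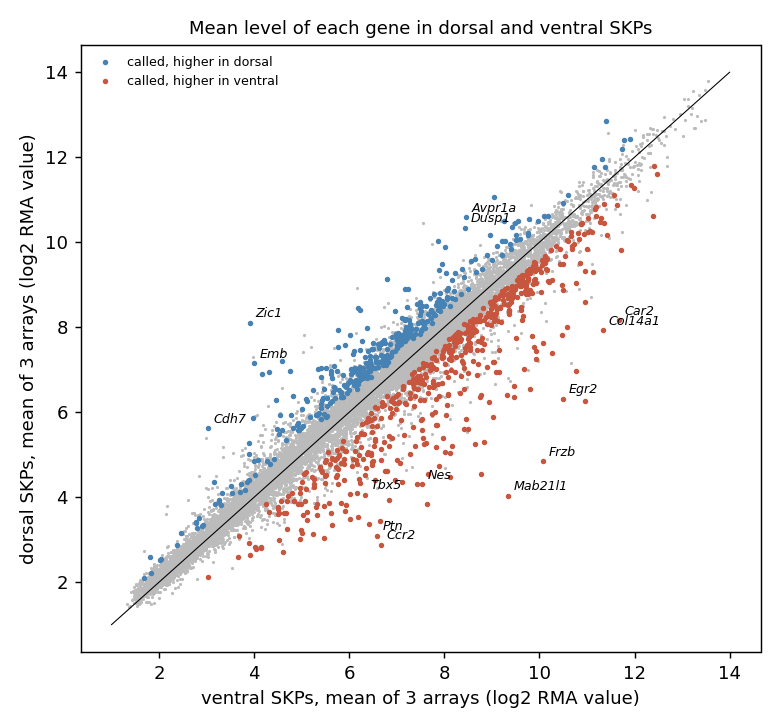
Each point is 1 gene, with its mean over 3 ventral arrays on the x axis and over 3 dorsal arrays on the y axis (log2 RMA values); coloured points were called at an adjusted p under 0.05, grey points were not, and the line marks equal levels. Zic1, Emb and Cdh7 lie farthest toward dorsal among the labelled genes, and Mab21l1, Frzb and Egr2 farthest toward ventral.

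The gene with the largest dorsal excess was Zic1, a zinc finger transcription factor of the dorsal neural tube and dorsal somite. It stood at 7.53, 8.25 and 8.53 on dorsal arrays 1 to 3 against 4.06, 4.04 and 3.64 on the ventral ones (log2 difference 4.19, SE 0.23, adjusted p = 2.65e-06). All 3 dorsal isolates had it, and the ventral values lay near the background of 3.79, the 25th percentile of ventral means, so that the size of the difference is not resolved. Facial SKPs also lay near background, at 3.97, 4.14 and 3.60. Its neighbour in the family Zic4 was called on a smaller scale, at 3.77, 4.45 and 4.11 in dorsal against 3.52, 3.58 and 3.50 in ventral SKPs (0.58, adjusted p = 0.0352). Zic4 lost its call without dorsal array 2 or 3 or ventral array 1, 2 or 3 (adjusted p 0.0648 to 0.119). Over the alternatives that kept the gene it was 0.00661 to 0.142, and 1 of the 2 filters on low levels removed Zic4. The genes most like Zic1 over the 9 SKP arrays were Cdh7 (r = 0.98), Lama3 (r = 0.979), Ccdc134 (r = 0.954). Among these, the cadherin Cdh7 stood at 5.26, 5.72 and 5.86 in dorsal and 3.42, 2.99 and 2.67 in ventral SKPs (2.59, SE 0.23, adjusted p = 0.000108), and the laminin chain Lama3 at 5.41, 5.56 and 5.79 in dorsal and 4.65, 4.57 and 4.52 in ventral SKPs (1.00, SE 0.18, adjusted p = 0.00971). Ventral values of Cdh7 and Zic4 lay below background, so the sizes of their differences are not resolved. Zic4 also lay near the dorsal background of 3.84, with a dorsal mean of 4.11 and dorsal array 1 below that background.

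On the ventral side stood Mab21l1 and Tbx5. Mab21l1, a gene known from the development of the eye and other organs, was at 9.44, 9.04 and 9.55 on the ventral arrays and at 4.09, 4.10 and 3.93 on the dorsal ones (log2 difference -5.30, SE 0.38, adjusted p = 1.93e-05). Facial SKPs had it at 9.15, 9.51 and 8.78, so the dorsal isolates were the low ones among SKPs. Tbx5, a T-box factor of the forelimb, heart and anterior lateral plate, was at 6.57, 6.36 and 6.05 in ventral and 3.90, 4.40 and 3.89 in dorsal SKPs (log2 difference -2.27, SE 0.20, adjusted p = 0.000113). Facial levels of Tbx5 were 4.41, 4.01 and 4.03, close to the dorsal ones. The dorsal means of Mab21l1 and Tbx5, 4.04 and 4.06, lay near the dorsal background of 3.84. The sizes of their differences are thus not resolved. Over the 9 SKP arrays the genes most like Tbx5 were Slc1a1 (r = 0.984), Plxdc1 (r = 0.976), Adamts4 (r = 0.976). Those most like Mab21l1 were Cxcl14 (r = 0.99), Pgf (r = 0.976), Nrp1 (r = 0.975). These correlations describe arrays that share their region and are no test. The orphan nuclear receptor Nr2f2 (COUP-TFII), a factor of lateral mesoderm and veins, was at 8.60, 8.54 and 8.67 in ventral against 7.50, 7.57 and 6.58 in dorsal SKPs (-1.39, SE 0.23, adjusted p = 0.00638). Nr2f2 lost its call in a fit of the 6 arrays alone (adjusted p 0.0549, and 0.00151 to 0.0549 over all alternatives).

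In the positional lists the share of calls was read against all genes, of which 2.35% were higher in dorsal and 3.76% in ventral SKPs. Of 17 measured somite and dorsal dermis factors, 2 were higher in dorsal SKPs (Zic1 and Zic4) and 1 in ventral SKPs, with a list median of 0.18, against 1 dorsal call, 1 ventral call and a median of 0.11 without dorsal array 3. The ventral one was Meox2, a homeobox gene of the somite, at 6.27, 5.18 and 5.45 in ventral and 3.85, 3.59 and 2.57 in dorsal SKPs (-2.30, SE 0.41, adjusted p = 0.00847), and facial SKPs stood at 6.01, 5.12 and 6.14. The dorsal mean of Meox2, 3.34, lay below the dorsal background of 3.84, so the size of its difference is not resolved. Of 26 lateral plate and ventral body wall factors only Tbx5 was called, which is near the share over all genes, and the list median was 0.06. Hand2 (-0.36, adjusted p = 0.218), Pitx1 (-0.01, adjusted p = 0.994) and Tbx4 (0.37, adjusted p = 0.143) did not pass. Without dorsal array 3 the difference of Pitx1 was 0.06. Among 30 other homeobox and positional factors Nr2f2 was the single call (median 0.09, against 0.04 without dorsal array 3). Of 6 coat factors, Asip, which encodes the agouti signal of ventral hair, was called at 5.09, 4.91 and 5.01 in ventral against 4.29, 4.41 and 4.38 in dorsal SKPs (-0.64, SE 0.15, adjusted p = 0.025). Asip lost its call without dorsal array 1 or ventral array 1, 2 or 3 (adjusted p 0.0556 to 0.103, and 0.0109 to 0.103 over all alternatives). Tbx15, a T-box factor of dorsal coat pattern, did not pass (-0.26, adjusted p = 0.434), with dorsal values of 7.54, 7.78 and 8.01 and ventral ones of 8.10, 8.06 and 7.95.

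Hox genes gave 1 call among 22 measured, against 6.11% of all genes. None of 11 anterior and 8 posterior Hox genes was called in limma's fit, with medians of 0.09 and -0.01, against 0.16 and -0.05 without dorsal array 3. At an unadjusted p under 0.05 in limma's fit, each of these lists had 1 gene higher in dorsal and 1 higher in ventral SKPs. Over all 14506 genes, 3113 passed that cut in either direction. Without dorsal array 3 each of these lists had 1 dorsal call and 0 ventral calls. Of 3 central ones Hoxa7 was called, at 5.82, 5.86 and 6.26 in dorsal against 5.42, 5.55 and 5.10 in ventral SKPs (0.63, adjusted p = 0.0464). Hoxa7 lost its call without dorsal array 2 or 3 or ventral array 1, 2 or 3 (adjusted p 0.0596 to 0.178, and 0.0373 to 0.178 over all alternatives). Hoxc9, a gene of the trunk, was at 6.36, 6.46 and 6.52 in dorsal and 7.12, 6.94 and 6.99 in ventral SKPs and did not pass (-0.57, adjusted p = 0.163, with 0.0475 in a fit of the 6 arrays alone and up to 0.356 over all alternatives), while facial SKPs had it at 3.60, 3.14 and 3.41. Both trunk regions thus lay above every facial array for Hoxc9. Hoxa11, a gene of more posterior position, stood near background, at 3.64, 4.21 and 3.48 in dorsal and 3.41, 3.13 and 3.57 in ventral SKPs (0.41, adjusted p = 0.78).

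**Figure D2:**
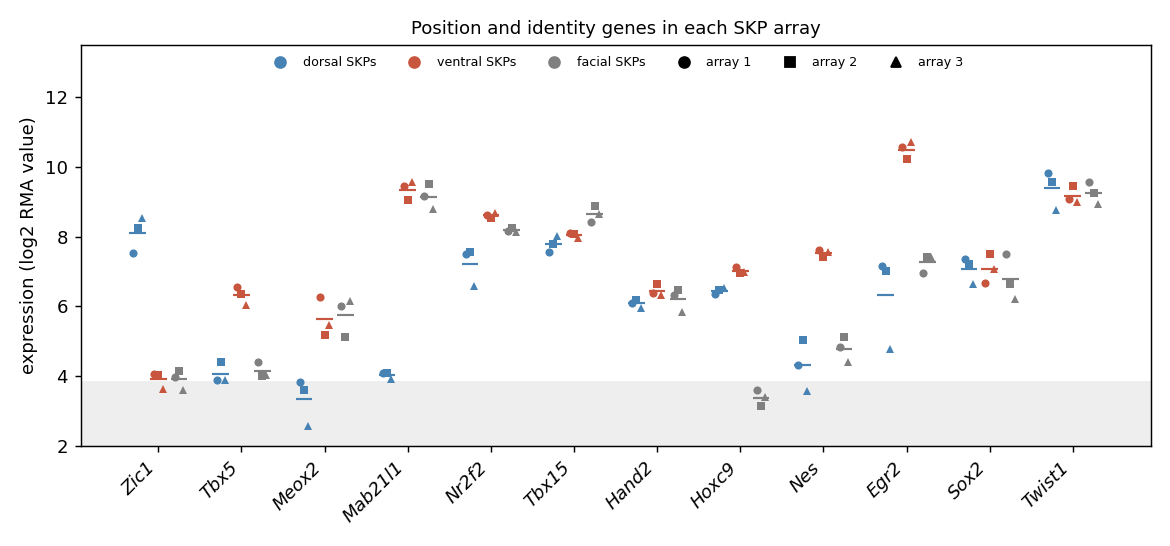
Expression (log2 RMA value, y axis) of 12 position and identity genes on each SKP array, coloured by region and shaped by array number, with a bar at the mean of 3 arrays; the shaded band lies below the mean of the regions' background levels. Zic1 is high on the dorsal arrays alone, Tbx5, Nes and Egr2 are highest on the ventral arrays, and Sox2 and Twist1 overlap between regions.

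Promoter sequence is shown for 4 genes, since the array values above and below turn on them: Mab21l1 and Frzb, with the largest ventral excess, Dusp1, a called gene higher in dorsal SKPs, and Kdr, an endothelial receptor described below. The letters are the 250 bases before the annotated start in RefSeq's GRCr8 assembly, 5′ to 3′ on the gene's strand. Capitals mark AGGAAG or its reverse complement CTTCCT in Frzb and Mab21l1, TGACGTCA in Dusp1 and GTGGGCG in Kdr. These are an ETS core, the cAMP response element and part of the EGR site.
Frzb: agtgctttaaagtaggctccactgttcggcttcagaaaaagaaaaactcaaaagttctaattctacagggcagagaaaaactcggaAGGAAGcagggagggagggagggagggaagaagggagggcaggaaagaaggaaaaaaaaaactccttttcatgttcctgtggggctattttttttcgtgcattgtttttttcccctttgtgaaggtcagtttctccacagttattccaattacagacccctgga
Mab21l1: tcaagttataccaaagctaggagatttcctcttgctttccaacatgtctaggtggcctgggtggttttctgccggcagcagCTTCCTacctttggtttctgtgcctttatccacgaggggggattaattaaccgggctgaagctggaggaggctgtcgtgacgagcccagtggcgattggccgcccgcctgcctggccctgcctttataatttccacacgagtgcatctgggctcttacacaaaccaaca
Dusp1: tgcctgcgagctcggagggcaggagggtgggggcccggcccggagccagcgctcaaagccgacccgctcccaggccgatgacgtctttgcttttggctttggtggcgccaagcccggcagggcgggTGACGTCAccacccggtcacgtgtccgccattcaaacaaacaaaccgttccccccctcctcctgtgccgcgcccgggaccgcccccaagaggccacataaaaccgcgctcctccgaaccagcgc
Kdr: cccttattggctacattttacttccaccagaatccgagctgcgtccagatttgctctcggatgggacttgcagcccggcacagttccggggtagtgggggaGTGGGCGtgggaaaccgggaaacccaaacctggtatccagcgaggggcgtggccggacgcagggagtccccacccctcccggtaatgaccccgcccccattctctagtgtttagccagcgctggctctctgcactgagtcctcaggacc
The windows are Frzb chr3:85772097-85772346 (minus strand), Mab21l1 chr2:142093368-142093617 (plus strand), Dusp1 chr10:17184603-17184852 (plus strand) and Kdr chr14:32571813-32572062 (plus strand). Of 27457 such windows, AGGAAG occurred on either strand in 29.4%, TGACGTCA in 1.7% and GTGGGCG in 6.79%. Of the 215 genes higher in ventral SKPs by a log2 difference of at least 1, 168 had a window, and GTGGGCG occurred in 29 of them (17.3%). Of the 68 on the dorsal side 55 had a window, and it occurred in 4 (7.27%), against 10.2% of the 11970 measured genes with a window. TGACGTCA occurred in 3 of the 168 and 3 of the 55, against 2.28% of the measured genes. AGGAAG occurred in 29.2% of the 168 and 22 of the 55, against 29.0%. The strings were 3 of 10 searched and were chosen after their counts were seen, TGACGTCA contains another of the 10 (TGACGT), and a match describes letters, not a bound site.

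Of the genes used to recognise SKPs, nestin differed and the others named here did not pass. Nes, an intermediate filament of neural and mesenchymal precursors, was at 7.62, 7.42 and 7.57 in ventral SKPs and 4.33, 5.03 and 3.57 in dorsal SKPs (log2 difference -3.23, SE 0.55, adjusted p = 0.00732). Every ventral array lay at least 2 log2 units above every dorsal array, and facial SKPs, at 4.84, 5.12 and 4.41, lay near the dorsal ones. The dorsal background level was 3.84, with dorsal array 3 below it and dorsal arrays 1 and 2 above it. The stem cell factor Sox2 stood at 7.35, 7.20 and 6.63 in dorsal and 6.66, 7.51 and 7.06 in ventral SKPs, with overlap (-0.02, adjusted p = 0.987). The neural crest factors Twist1 (0.23, adjusted p = 0.8), Snai2 (-0.04, adjusted p = 0.978) and Pax3 (0.22, adjusted p = 0.738) did not pass. Nor did the neurotrophin receptor Ngfr (-1.03, adjusted p = 0.0551), the proteoglycan Vcan (-1.14, adjusted p = 0.132) and the retinoid-binding protein Crabp1 (-0.68, adjusted p = 0.732), which stood at 13.27, 13.06 and 9.68 in dorsal and 12.62, 12.77 and 12.65 in ventral SKPs. Dorsal array 3 was the low array for Crabp1, Snai2 and Vcan, and without it their log2 differences were 0.49, 0.65 and -0.57. Those of Twist1, Sox2 and Pax3 were then 0.54, 0.20 and 0.07. Pax3 lay near background in both regions, at 3.85, 4.32 and 4.53 in dorsal and 3.85, 4.02 and 4.17 in ventral SKPs. Facial SKPs had Pax3 at 8.50, 9.20 and 8.34. Ngfr was called with array weights (adjusted p 0.031), after either filter on low levels (0.045 and 0.0452) and without dorsal array 1 (0.0462), with 0.031 to 0.17 over all alternatives. Of 21 neural crest factors, 1 was higher in dorsal (Zic1) and 2 in ventral SKPs, against 2.35% and 3.76% of all genes. The list median was -0.02, against 1 dorsal call, 1 ventral call and a median of 0.07 without dorsal array 3. The 2 ventral ones were Nes and, by a smaller margin, Ets1 (-0.54, adjusted p = 0.0333). Ets1 lost its call without dorsal array 1, 2 or 3 or ventral array 1, 2 or 3 (adjusted p 0.0554 to 0.139, and 0.0214 to 0.139 over all alternatives).

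Some genes of glia and neurons were higher in ventral SKPs, while the other members of those lists were not called. Egr2 (Krox20), an immediate early zinc finger factor that also drives myelination in Schwann cells, stood at 10.56, 10.22 and 10.70 in ventral and 7.17, 7.01 and 4.78 in dorsal SKPs (log2 difference -4.17, SE 0.50, adjusted p = 0.000848), and at 6.96, 7.41 and 7.41 in facial SKPs. Dorsal array 3 was the lowest of all 9 for Egr2, and without it the adjusted p was 6.49e-05 and the log2 difference -3.40. The growth cone protein Gap43 was at 6.21, 6.44 and 6.80 in ventral against 5.03, 4.75 and 4.72 in dorsal SKPs (-1.65, SE 0.30, adjusted p = 0.00971). The microtubule protein Map2 was at 7.68, 7.48 and 7.66 in ventral against 5.79, 4.88 and 5.16 in dorsal SKPs (-2.33, SE 0.51, adjusted p = 0.0204). Map2 lost its call without dorsal array 2 or ventral array 1, 2 or 3 (adjusted p 0.0568 to 0.0765, and 0.00364 to 0.0765 over all alternatives). Of 16 Schwann and glial markers 0 were higher in dorsal and 2 in ventral SKPs, and of 15 neuronal markers 0 and 2, with Gap43 in both lists (medians -0.26 and 0.15). Over all genes 2.35% were higher in dorsal and 3.76% in ventral SKPs. Without dorsal array 3 each list had 1 dorsal and 2 ventral calls, and the medians were -0.09 and 0.09. None of 8 melanocyte and 12 keratinocyte markers was called in limma's fit. At an unadjusted p under 0.05 in that fit there were 0 melanocyte markers and 1 keratinocyte marker, against 3113 of all 14506 genes. The list means of keratinocyte markers were 4.19, 4.14 and 4.26 in dorsal and 4.06, 4.16 and 4.19 in ventral SKPs, and 6 of the 12 lay above background in either region. Dermal papilla and dermal sheath markers gave 3 calls of 25, all higher in ventral SKPs, as were 3.76% of all genes (list median -0.26, against -0.12 without dorsal array 3). They were the secreted matrix protein Spon1 (-2.15, SE 0.30, adjusted p = 0.00208), the factor Sox18 (-1.65, SE 0.20, adjusted p = 0.000792) and the Notch target Heyl (-1.02, SE 0.24, adjusted p = 0.0267). Sox18 is counted again in the endothelial list and Heyl in the Notch list, both described below. The dorsal mean of Sox18, 3.46, lay below the dorsal background of 3.84, so the size of its difference is not resolved. Heyl lost its call without dorsal array 1 or 2 or ventral array 1 or 3 (adjusted p 0.0532 to 0.117, and 0.0209 to 0.117 over all alternatives).

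Called Wnt pathway genes lay on both sides. Wnt ligands bind Frizzled receptors and stabilise beta-catenin, secreted antagonists hold them off, and targets such as Nkd1 feed back on the pathway. Of 36 measured genes 4 were higher in dorsal and 4 in ventral SKPs, against 2.35% and 3.76% of all genes, with a median of -0.01. Without dorsal array 3 it was 7 and 2, with a median of 0.17. Among the ligands, Wnt4 was at 7.03, 6.96 and 7.10 in dorsal and 5.54, 5.54 and 5.16 in ventral SKPs (log2 difference 1.62, SE 0.19, adjusted p = 0.000844). Wnt16 was at 8.19, 8.36 and 8.62 in dorsal and 7.38, 6.79 and 6.73 in ventral SKPs (1.42, SE 0.27, adjusted p = 0.0117), also with no overlap. Wnt6 went the other way, at 5.76, 5.78 and 5.80 in ventral and 4.81, 5.11 and 5.04 in dorsal SKPs (-0.80, SE 0.11, adjusted p = 0.00232). All 3 ventral isolates were within 0.1 of each other for Wnt6. Wnt16 lost its call without ventral array 3 (adjusted p 0.0582, and 0.00331 to 0.0582 over all alternatives).

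Among the secreted antagonists, Frzb (Sfrp3) had the second largest ventral excess of all genes after Mab21l1. It stood at 10.38, 9.89 and 9.97 in ventral, 5.42, 4.62 and 4.49 in dorsal and 4.92, 5.23 and 5.33 in facial SKPs (log2 difference -5.24, SE 0.28, adjusted p = 2.65e-06), 37.7-fold higher in ventral than in dorsal SKPs. The ventral isolates were thus the high ones among the 9 arrays. The genes most like it over these arrays were Il1rap (r = 0.991), Wdr86 (r = 0.989), Upk1b (r = 0.989). Its relative Sfrp2 went the other way, at 6.25, 6.94 and 7.88 in dorsal against 5.17, 5.66 and 5.22 in ventral SKPs (1.67, SE 0.36, adjusted p = 0.0196), and higher still in facial SKPs at 8.97, 10.13 and 9.63. Sfrp2 lost its call without ventral array 1 or 3 (adjusted p 0.0799 to 0.0813, and 0.00714 to 0.0868 over all alternatives). The antagonist Dkk1 (-0.98, adjusted p = 0.0303) and the agonist Rspo1 (-1.02, adjusted p = 0.0226) were higher in ventral and the feedback inhibitor Nkd1 (1.06, adjusted p = 0.0132) in dorsal SKPs. Dorsal values of Dkk1, at 3.85, 3.74 and 3.32, lay near or below the dorsal background of 3.84, so the size of its difference is not resolved. Dkk1 lost its call without dorsal array 2 or 3 or ventral array 1 or 2 (adjusted p 0.0541 to 0.114, and 0.0212 to 0.114 over all alternatives), Rspo1 without dorsal array 3 or ventral array 1, 2 or 3 (adjusted p 0.0553 to 0.0875, and 0.0146 to 0.0875 over all alternatives), and Nkd1 without ventral array 1 or 3 (adjusted p 0.0502 to 0.0591, and 0.00914 to 0.0591 over all alternatives).

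In the BMP and FGF lists the share of calls was near the 6.11% of all genes. Of 31 BMP and TGF-beta genes 2 were higher in dorsal and 0 in ventral SKPs (median 0.25, against 3 dorsal calls, 0 ventral calls and a median of 0.32 without dorsal array 3). Bmp3, a member that restrains osteogenic BMP signals, stood at 7.94, 6.52 and 7.16 in dorsal and 4.29, 5.08 and 4.38 in ventral SKPs (2.62, SE 0.50, adjusted p = 0.0113), with facial SKPs at 9.44, 8.28 and 8.24. Bmp3 lost its call without ventral array 1 or 3 (adjusted p 0.0523 to 0.0527, and 0.00709 to 0.0527 over all alternatives). Ltbp1, which binds latent TGF-beta, was the other call (1.25, SE 0.27, adjusted p = 0.0202). Ltbp1 lost its call without dorsal array 1 or 2 or ventral array 1 or 3 (adjusted p 0.0533 to 0.0918, and 0.0045 to 0.108 over all alternatives). Of 35 FGF and EGF pathway genes 0 were higher in dorsal and 2 in ventral SKPs (median 0.03, against 1 dorsal call, 2 ventral calls and a median of 0.13 without dorsal array 3). The FGF-responsive ETS factor Etv4 was at 8.09, 7.95 and 8.18 in ventral against 6.85, 6.66 and 6.98 in dorsal SKPs (-1.24, SE 0.15, adjusted p = 0.000773), and the pathway inhibitor Spred1 at 10.43, 10.45 and 10.60 in ventral against 9.68, 9.66 and 9.13 in dorsal SKPs (-1.01, SE 0.17, adjusted p = 0.00666). The MAP kinase phosphatase Dusp1, which was in no list, was at 10.45, 10.05 and 10.54 in dorsal against 8.51, 8.36 and 8.46 in ventral SKPs (1.90, SE 0.14, adjusted p = 2.15e-05), and facial SKPs had 10.35, 10.70 and 10.42. Ventral isolates were the low ones for Dusp1.

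The called genes of the Notch list and the 1 called Hedgehog gene were higher in ventral SKPs. Over all genes 2.35% were higher in dorsal and 3.76% in ventral SKPs, and the counts here are read against these shares. Of the calls in these lists, only that of Notch1 was kept without each of the 6 arrays. Of 18 Notch pathway genes 0 were higher in dorsal and 3 in ventral SKPs (median -0.08, against 1 dorsal call, 2 ventral calls and a median of -0.06 without dorsal array 3). The receptor Notch1 stood at 7.55, 7.46 and 7.62 in ventral and 5.23, 5.97 and 4.95 in dorsal SKPs (-2.16, SE 0.34, adjusted p = 0.00424). The ligand Dll4 (-1.05, adjusted p = 0.0249) and the target Heyl were the other calls. The dorsal mean of Dll4, 3.62, lay below the dorsal background of 3.84, so the size of its difference is not resolved. Dll4 lost its call without dorsal array 2 or 3 or ventral array 1 or 3 (adjusted p 0.0599 to 0.111, and 0.00702 to 0.111 over all alternatives). Of 8 Hedgehog genes Gli2, a transcription factor of that pathway, was called (-0.56, adjusted p = 0.0486). Gli2 lost its call without dorsal array 2 or 3 or ventral array 1, 2 or 3 (adjusted p 0.068 to 0.152, and 0.0319 to 0.152 over all alternatives). Of 17 retinoid pathway genes the receptors Rarg (dorsal, 0.52) and Rara (ventral, -0.57) were called, on opposite sides, and without dorsal array 3 the list had 3 dorsal calls and 1 ventral call. Rarg lost its call without ventral array 1 or 3 (adjusted p 0.0758 to 0.0903, and 0.0114 to 0.0903 over all alternatives), and Rara without dorsal array 1 or 2 or ventral array 1 or 3 (adjusted p 0.0545 to 0.114, and 0.0118 to 0.114 over all alternatives). Of 15 IGF genes Igfbp4 (-1.26, adjusted p = 0.0278) and Insr (-0.50, adjusted p = 0.0194) were higher in ventral SKPs. Igfbp4 lost its call without dorsal array 1 or 3 or ventral array 1, 2 or 3 (adjusted p 0.0573 to 0.106, and 0.0104 to 0.106 over all alternatives), and Insr without dorsal array 1 or ventral array 1, 2 or 3 (adjusted p 0.0501 to 0.0903, and 0.00554 to 0.16 over all alternatives).

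**Figure D3:**
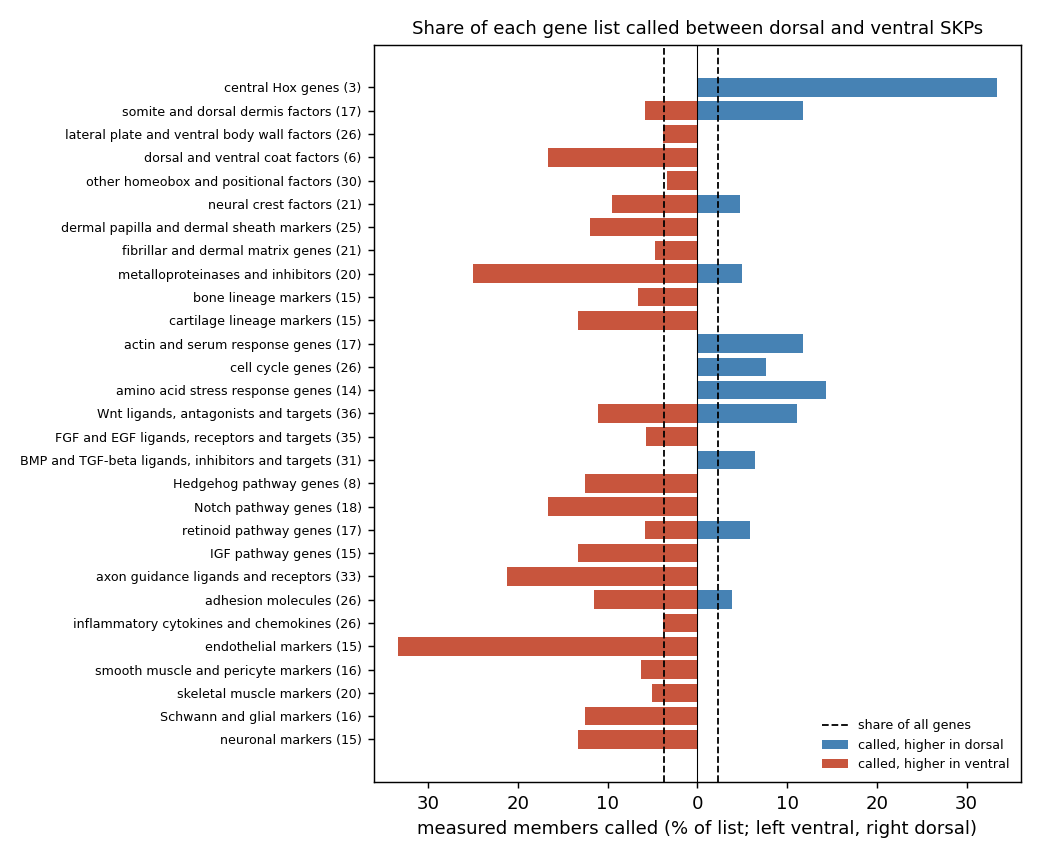
Share of the measured members of each gene list that were called (x axis, percent; bars to the right higher in dorsal, to the left higher in ventral SKPs), with the number measured after each name; the dashed lines mark the same shares over all genes, 2.35% and 3.76%. Endothelial markers, metalloproteinases and inhibitors and axon guidance genes have the longest bars on the ventral side; lists with no call are not drawn, and the bar of the central Hox genes rests on 1 of 3.

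The called members of the endothelial list were all higher in ventral SKPs. Of 15 measured markers 5 were higher in ventral and 0 in dorsal SKPs, against 3.76% and 2.35% of all genes, and the list median was -0.97 against 0.05 over all genes. The same 5 were called without each of the 6 arrays (1.36% of all genes were, on the ventral side), and the values of 11 of the 15 did not overlap (28.7% of all genes). Pecam1, a junction protein of endothelium and some blood cells, stood at 6.65, 5.43 and 6.50 on the ventral arrays and 3.47, 3.62 and 3.49 on the dorsal ones (log2 difference -2.67, SE 0.36, adjusted p = 0.00171). The sialomucin Emcn was at 5.65, 4.85 and 5.92 in ventral and 2.95, 3.30 and 2.84 in dorsal SKPs (-2.45, SE 0.28, adjusted p = 0.00061). The VEGF receptor Kdr was at 5.31, 4.57 and 5.19 in ventral and 3.60, 3.81 and 3.29 in dorsal SKPs (-1.45, SE 0.19, adjusted p = 0.00131), and the cadherin of endothelial junctions, Cdh5, at 4.99, 4.87 and 4.65 in ventral and 3.95, 3.78 and 4.02 in dorsal SKPs (-0.92, SE 0.11, adjusted p = 0.000927). Sox18 (ventral 5.18, 4.74 and 5.40, dorsal 3.38, 3.68 and 3.30) completed the set. All ventral arrays lay above all dorsal arrays for these 5 genes. Ventral array 2 was the lowest of the ventral arrays for Pecam1, Emcn, Kdr and Sox18.

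Background was 3.84 in dorsal and 3.79 in ventral SKPs, and the 95th percentile of 1105 olfactory receptor genes, which such cells are not known to use, was 4.03 and 3.94. Of the 15 endothelial markers 14 lay above background in ventral and 9 in dorsal SKPs. In dorsal SKPs Pecam1, Emcn, Kdr and Sox18 lay below background, and Cdh5, with a mean of 3.92, lay near it. The sizes of the differences of these 5 genes are thus not resolved. The list means were 5.33, 4.99 and 5.42 on the ventral, 4.18, 4.32 and 4.01 on the dorsal and 4.48, 4.39 and 4.56 on the facial arrays. Flt1 (ventral 6.75, 7.75 and 7.23, dorsal 5.06, 6.39 and 4.84; -1.82, adjusted p = 0.0798) and Tie1 (ventral 6.42, 5.97 and 6.30, dorsal 5.19, 4.36 and 4.67; -1.49, adjusted p = 0.0768) did not pass, nor did Tek, Erg, Esam, Egfl7, Cldn5, Sox17, Lyve1 and Prox1. Lyve1 and Prox1, of lymphatic vessels, differed by -0.13 and -0.10, with Lyve1 at 4.61 ± 0.26 in ventral and 4.49 ± 0.18 in dorsal SKPs (SD, n = 3). With the mean of 24 macrophage and leukocyte markers as a covariate the 5 genes kept their call (adjusted p for Pecam1 of 0.00098), and the part of other cell types was not tested. In bulk RNA, fewer cells of a type and less RNA per cell cannot be told apart. Adgrl4, a receptor also known from endothelium and outside the list, went the other way, at 7.80, 7.38 and 8.28 in dorsal, 5.87, 6.10 and 6.08 in ventral and 4.12, 3.40 and 3.49 in facial SKPs (1.81, SE 0.27, adjusted p = 0.00335). Of 16 smooth muscle and pericyte markers Rgs5, a pericyte gene, was the one call (without dorsal array 3 another was higher in dorsal SKPs), at 5.74, 5.29 and 6.29 in ventral and 4.44, 4.53 and 3.99 in dorsal SKPs (-1.45, SE 0.28, adjusted p = 0.0119). Rgs5 lost its call without ventral array 3 (adjusted p 0.0553, and 0.00969 to 0.0553 over all alternatives).

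**Figure D4:**
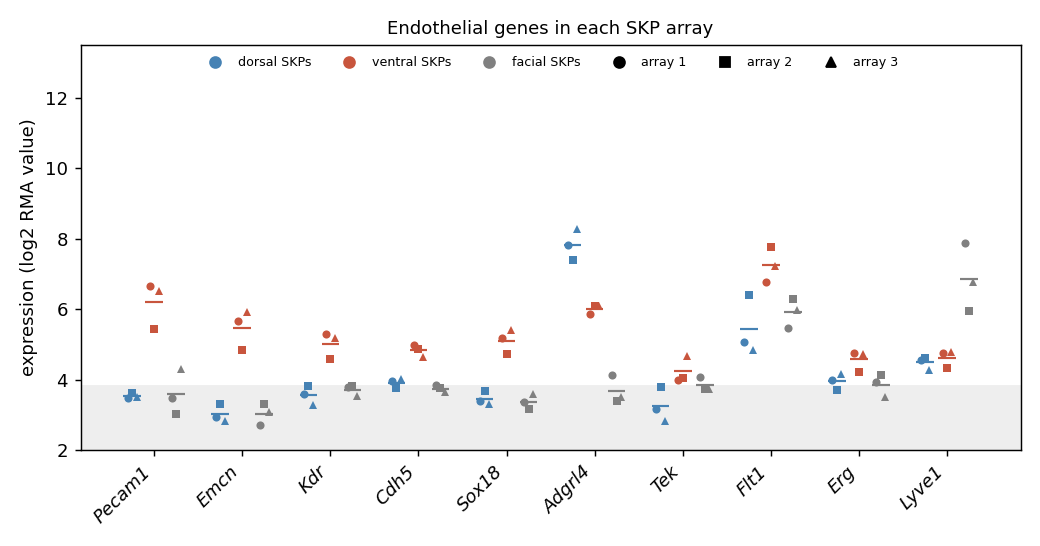
Expression (log2 RMA value, y axis) of 10 endothelial genes on each SKP array, coloured by region and shaped by array number, with a bar at the mean of 3 arrays and shading below the mean of the regions' background levels. Pecam1, Emcn, Kdr, Cdh5 and Sox18 lie above the shaded band on the ventral arrays, while Adgrl4 is highest on the dorsal ones and Lyve1 on the facial ones.

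Axon guidance genes were called in 1 direction. Semaphorins, ephrins and their receptors steer growing axons and migrating crest cells, and fibroblasts make several of them. Of 33 measured, 7 were higher in ventral and 0 in dorsal SKPs, against 3.76% and 2.35% of all genes (median -0.20), and the counts were the same without dorsal array 3. Without each of the 6 arrays in turn 3 kept their call (1.36% of all genes did, on the ventral side). At an unadjusted p under 0.05 in limma's fit, 9 were higher in ventral and 3 in dorsal SKPs. Over all 14506 genes, 3113 passed that cut in either direction. The receptor Nrp1, which binds class 3 semaphorins and VEGF, was at 10.07, 9.76 and 9.92 in ventral and 7.51, 7.53 and 7.26 in dorsal SKPs (log2 difference -2.48, SE 0.43, adjusted p = 0.00795). Facial SKPs lay between, at 9.18, 9.46 and 9.70. The ligand Sema3d was at 10.74, 11.58 and 10.52 in ventral and 7.81, 8.85 and 9.13 in dorsal SKPs (-2.35, SE 0.48, adjusted p = 0.0151), with facial SKPs lower than both at 6.70, 6.49 and 6.19. The ephrins Efna5 (-1.70, SE 0.26, adjusted p = 0.00411) and Efnb2 (-1.04, SE 0.13, adjusted p = 0.000926) and the receptor Epha2 (-1.18, SE 0.25, adjusted p = 0.0188) were higher in ventral SKPs too. So were Sema7a (-1.91, adjusted p = 0.0232) and Sema3a (-0.72, adjusted p = 0.0132), and without dorsal array 3 the difference of Sema7a was -1.27. Sema3d lost its call without ventral array 1 or 2 (adjusted p 0.0502 to 0.0609, and 0.00474 to 0.0609 over all alternatives), Sema7a without ventral array 1, 2 or 3 (adjusted p 0.0675 to 0.0895, and 0.00462 to 0.117 over all alternatives), Epha2 without ventral array 2 or 3 (adjusted p 0.0637 to 0.0837, and 0.0153 to 0.0837 over all alternatives), and Sema3a without ventral array 2 or 3 (adjusted p 0.053 to 0.0556, and 0.00908 to 0.056 over all alternatives).

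Matrix genes showed single large differences within lists that otherwise did not pass. Collagen XIV (Col14a1), a fibril-associated collagen, stood at 11.57, 11.01 and 11.44 in ventral, 8.13, 8.60 and 7.05 in dorsal and 11.30, 10.38 and 9.99 in facial SKPs (log2 difference -3.41, SE 0.41, adjusted p = 0.000926). It was the one call among 21 fibrillar and dermal matrix genes, whose median was -0.59. Without dorsal array 3 that median was 0.10 and 1 gene was called on the dorsal side, and the list mean on dorsal array 3 was 8.49 against 10.41 and 10.37 on dorsal arrays 1 and 2. The microfibril protein Mfap2, outside the list, was at 10.14, 9.53 and 9.70 in ventral and 7.18, 7.53 and 4.96 in dorsal SKPs (-3.24, SE 0.54, adjusted p = 0.00638). Mfap2 lost its call in a fit of the 6 arrays alone (adjusted p 0.0629, and 0.00176 to 0.0629 over all alternatives). Col11a1, a collagen of cartilage, was at 7.94, 7.80 and 7.82 in ventral and 6.21, 5.63 and 5.23 in dorsal SKPs (-2.16, SE 0.35, adjusted p = 0.00562), and the link protein Hapln1 at 8.61, 9.04 and 8.66 in ventral and 7.52, 6.52 and 5.20 in dorsal SKPs (-2.36, SE 0.45, adjusted p = 0.0115). They were the 2 calls among 15 cartilage markers (median 0.06), against 3.76% of all genes higher in ventral SKPs. Hapln1 lost its call in a fit of the 6 arrays alone (adjusted p 0.0812, and 0.00213 to 0.0812 over all alternatives). The crosslinking enzyme Loxl2 was at 9.24, 8.33 and 8.72 in ventral and 6.69, 6.33 and 6.04 in dorsal SKPs (-2.41, SE 0.40, adjusted p = 0.00636), and was named after its values were seen.

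Of 20 metalloproteinases and inhibitors, 5 were higher in ventral and 1 in dorsal SKPs, against 3.76% and 2.35% of all genes (median -0.07, against 2 dorsal calls, 5 ventral calls and a median of 0.04 without dorsal array 3). The inhibitor Timp3, which is bound to matrix, was at 10.39, 9.61 and 10.77 in ventral and 7.68, 8.07 and 6.43 in dorsal SKPs (-2.86, SE 0.43, adjusted p = 0.00368), with facial SKPs at 10.06, 10.04 and 9.71. The aggrecanase Adamts4 was at 9.08, 9.05 and 8.97 in ventral and 6.78, 7.55 and 7.20 in dorsal SKPs (-1.86, SE 0.31, adjusted p = 0.00633). Its relative Adamts5 was the dorsal one, at 7.09, 7.12 and 7.91 in dorsal against 6.45, 6.25 and 5.54 in ventral SKPs (1.30, SE 0.26, adjusted p = 0.0138). Timp1 (-1.78, adjusted p = 0.0322), Mmp16 (-1.69, adjusted p = 0.0156) and Mmp14 (-0.88, adjusted p = 0.0137) were the other ventral calls, and without dorsal array 3 the difference of Timp1 was -1.12. Adamts5 lost its call without ventral array 3 (adjusted p 0.0557, and 0.00939 to 0.0893 over all alternatives), Timp1 without ventral array 1, 2 or 3 (adjusted p 0.0925 to 0.106, and 0.0123 to 0.132 over all alternatives), Mmp16 without ventral array 1 (adjusted p 0.074, and 0.00596 to 0.0767 over all alternatives), and Mmp14 without ventral array 1 or 3 (adjusted p 0.0612 to 0.0672, and 0.00712 to 0.0755 over all alternatives).

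Further genes with the largest ventral excess encode surface receptors, enzymes and secreted factors. The chemokine receptor Ccr2, known from monocytes, was at 6.51, 6.31 and 7.19 in ventral and 3.14, 2.80 and 2.70 in dorsal SKPs (log2 difference -3.79, SE 0.21, adjusted p = 2.65e-06), where it lay below background. Facial SKPs had it at 3.08, 2.77 and 3.15. Macrophage and leukocyte markers had list means of 7.03, 5.10 and 4.37 on the dorsal, 5.29, 5.27 and 5.56 on the ventral and 7.67, 6.23 and 9.93 on the facial arrays. In limma's fit none of 24 such markers was called (median 0.25, against 0.83 without dorsal array 3, with 0 and 2 higher in dorsal and ventral SKPs at an unadjusted p under 0.05), and with their mean as a covariate the adjusted p of Ccr2 was 2.62e-06 (1.51e-06 to 0.00346 over all alternatives). Over all 14506 genes, 3113 had an unadjusted p under 0.05 in limma's fit, in either direction. The part of macrophages and leukocytes in the Ccr2 signal was not tested. The chemokine Cxcl14 was the one call of 26 cytokines and chemokines (without dorsal array 3 a further 2 were higher in dorsal SKPs), at 7.84, 7.98 and 8.10 in ventral, 5.31, 5.45 and 5.40 in dorsal and 8.08, 8.56 and 8.01 in facial SKPs (-2.58, SE 0.19, adjusted p = 1.93e-05). Dorsal isolates were the low ones for Cxcl14. Carbonic anhydrase 2 (Car2) was at 11.57, 11.78 and 11.70 in ventral and 8.47, 8.23 and 7.78 in dorsal SKPs (-3.52, SE 0.35, adjusted p = 0.000227), and the heparin-binding growth factor pleiotrophin (Ptn) at 6.51, 6.20 and 7.06 in ventral and 3.00, 3.22 and 3.04 in dorsal SKPs (-3.50, SE 0.30, adjusted p = 6.56e-05), below background in dorsal SKPs. Tmem26, a membrane protein, was at 8.97, 8.09 and 8.88 in ventral and 5.81, 5.40 and 4.53 in dorsal SKPs (-3.40, SE 0.33, adjusted p = 0.000212).

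Other ventral genes varied among the dorsal isolates. The carboxypeptidase-like Cpxm1 was at 11.26, 10.10 and 11.51 in ventral and 7.53, 6.72 and 4.55 in dorsal SKPs (-4.69, SE 0.83, adjusted p = 0.0087), and Itm2a, a membrane protein of mesenchyme, at 8.93, 8.38 and 9.03 in ventral and 6.26, 4.72 and 2.64 in dorsal SKPs (-4.24, SE 0.82, adjusted p = 0.0119). The lipid transporter Abca8a was at 8.06, 7.40 and 7.42 in ventral and 5.44, 3.10 and 2.94 in dorsal SKPs (-3.80, SE 0.68, adjusted p = 0.00899), the prostaglandin transporter Slco2a1 at 10.71, 10.89 and 10.70 in ventral and 7.77, 8.19 and 4.95 in dorsal SKPs (-3.79, SE 0.82, adjusted p = 0.0201), and the anion exchanger Slc26a7 at 8.00, 8.41 and 7.93 in ventral and 4.29, 5.98 and 3.12 in dorsal SKPs (-3.65, SE 0.69, adjusted p = 0.0113). Cd34, a sialomucin of vessels and dermal fibroblasts, ran from 2.58 to 7.59 in dorsal SKPs and stood at 8.82, 8.59 and 9.11 in ventral SKPs (-3.53, SE 0.89, adjusted p = 0.039). Dorsal array 3 was the lowest dorsal array for all 6, and without it the difference of Cd34 was -2.17. The dorsal mean of Abca8a, 3.83, lay just below the dorsal background of 3.84, so the size of its difference is not resolved. Itm2a lost its call without ventral array 1 or 3 (adjusted p 0.0514 to 0.0546, and 0.00276 to 0.0603 over all alternatives), Slco2a1 without ventral array 1, 2 or 3 (adjusted p 0.0637 to 0.0709, and 0.00862 to 0.0709 over all alternatives), and Cd34 without dorsal array 2 or ventral array 1, 2 or 3 (adjusted p 0.065 to 0.129, and 0.00498 to 0.162 over all alternatives).

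Dorsal SKPs were higher in a shorter series of genes. Embigin (Emb), a cell adhesion glycoprotein, was at 7.58, 6.40 and 7.47 in dorsal and 3.67, 4.27 and 4.07 in ventral SKPs (log2 difference 3.15, SE 0.41, adjusted p = 0.00152). Facial SKPs were higher than both at 9.47, 8.80 and 9.22. The ventral mean of Emb, 4.00, lay near the ventral background of 3.79, so the size of its difference is not resolved. The receptor phosphatase Ptprz1, a receptor of pleiotrophin, was at 8.89, 8.73 and 9.75 in dorsal and 6.33, 6.97 and 7.07 in ventral SKPs (2.33, SE 0.36, adjusted p = 0.00406), opposite in direction to its ligand Ptn. The vasopressin receptor Avpr1a was at 10.62, 10.40 and 10.74 in dorsal and 8.18, 8.83 and 8.38 in ventral SKPs (2.12, SE 0.20, adjusted p = 0.000131), and LOC366310, a gene with no name, at 8.51, 8.28 and 8.42 in dorsal and 6.35, 6.57 and 5.78 in ventral SKPs (2.17, SE 0.21, adjusted p = 0.000184). The thyroid hormone deiodinase Dio2 was at 9.43, 11.11 and 9.55 in dorsal and 7.33, 8.57 and 7.69 in ventral SKPs (2.17, SE 0.46, adjusted p = 0.0184), and the bHLH-PAS factor Arnt2 at 7.32, 7.40 and 6.19 in dorsal and 4.66, 5.02 and 4.60 in ventral SKPs (2.21, SE 0.43, adjusted p = 0.0122). Dio2 lost its call without ventral array 1 or 3 (adjusted p 0.0758 to 0.0845, and 0.00451 to 0.0871 over all alternatives), and Arnt2 without ventral array 1 or 3 (adjusted p 0.0535 to 0.056, and 0.0018 to 0.056 over all alternatives). The glycosyltransferase Galnt3 (2.74, adjusted p = 0.0345), the lubricin gene Prg4 (2.63, adjusted p = 0.0321), the receptor Tlr4 (2.26, adjusted p = 0.0428), the cystine transporter Slc7a11 (2.17, adjusted p = 0.0491) and metallothionein 1 (Mt1) (2.03, adjusted p = 0.0486) were highest on dorsal array 3. Without that array the differences of Galnt3, Tlr4 and Slc7a11 were 1.69, 1.41 and 1.41. Galnt3 lost its call without ventral array 1, 2 or 3 (adjusted p 0.0652 to 0.123, and 0.0142 to 0.146 over all alternatives), Prg4 without dorsal array 1 or 3 or ventral array 1, 2 or 3 (adjusted p 0.0537 to 0.117, and 0.0156 to 0.117 over all alternatives), Tlr4 without ventral array 1, 2 or 3 (adjusted p 0.0962 to 0.129, and 0.0263 to 0.139 over all alternatives), Slc7a11 without dorsal array 2 or 3 or ventral array 1, 2 or 3 (adjusted p 0.0606 to 0.17, and 0.0212 to 0.17 over all alternatives), and Mt1 without dorsal array 1 or 3 or ventral array 1, 2 or 3 (adjusted p 0.052 to 0.165, and 0.0311 to 0.165 over all alternatives).

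The cell cycle, hypoxia and amino acid stress lists turned on dorsal array 3. Cell cycle genes had list means of 7.33, 6.85 and 5.11 on dorsal arrays 1 to 3 and 6.23, 6.15 and 6.06 on the ventral ones, so that dorsal values lay on both sides of the ventral ones. Of 26 measured 2 were called, both higher in dorsal SKPs (median 0.30), as were 2.35% of all genes. Without dorsal array 3, 11 were called, all higher in dorsal SKPs (median 1.02), as were 358 of all 14506 genes in that fit. The 2 of the full fit were the mitotic kinase Aurkb (1.23, SE 0.26, adjusted p = 0.0194) and the replication licensing factor Mcm2 (0.80, SE 0.19, adjusted p = 0.0304). Aurkb lost its call without dorsal array 1 or ventral array 2 or 3 (adjusted p 0.0505 to 0.0894, and 0.011 to 0.0894 over all alternatives), and Mcm2 without dorsal array 1 or 2 or ventral array 1, 2 or 3 (adjusted p 0.0681 to 0.115, and 0.00439 to 0.115 over all alternatives). Hypoxia and glycolysis genes had means of 8.92, 8.92 and 10.05 in dorsal and 9.12, 9.02 and 8.83 in ventral SKPs, and none of 26 was called in limma's fit (at an unadjusted p under 0.05, 2 and 1 were higher in dorsal and ventral SKPs). Their median was 0.29, and -0.04 without dorsal array 3, when 1 was higher in ventral SKPs. Over all 14506 genes, 3113 had an unadjusted p under 0.05 in limma's fit, in either direction. Amino acid stress response genes stood at 7.76, 8.18 and 9.70 in dorsal and 8.00, 8.07 and 7.79 in ventral SKPs. Of 14, 2 were higher in dorsal SKPs (2.35% of all genes were), namely Slc7a11 and Chac1 (0.62, adjusted p = 0.0243). The list median was 0.49, against 1 dorsal call, 0 ventral calls and a median of -0.04 without dorsal array 3. Chac1 lost its call without ventral array 1, 2 or 3 (adjusted p 0.0643 to 0.104, and 0.00843 to 0.118 over all alternatives). Of 17 actin and serum response genes the secreted Ccn1 (1.87, SE 0.40, adjusted p = 0.0184) and Actn1 (0.96, SE 0.24, adjusted p = 0.0352) were higher in dorsal SKPs, as were 2.35% of all genes (list median 0.30, against 0.50 without dorsal array 3). Ccn1 lost its call without dorsal array 1 or 2 or ventral array 1 or 3 (adjusted p 0.0522 to 0.0813, and 0.000421 to 0.0986 over all alternatives), and Actn1 without dorsal array 1, 2 or 3 or ventral array 1 or 3 (adjusted p 0.0648 to 0.146, and 0.0197 to 0.146 over all alternatives).

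**Figure D5:**
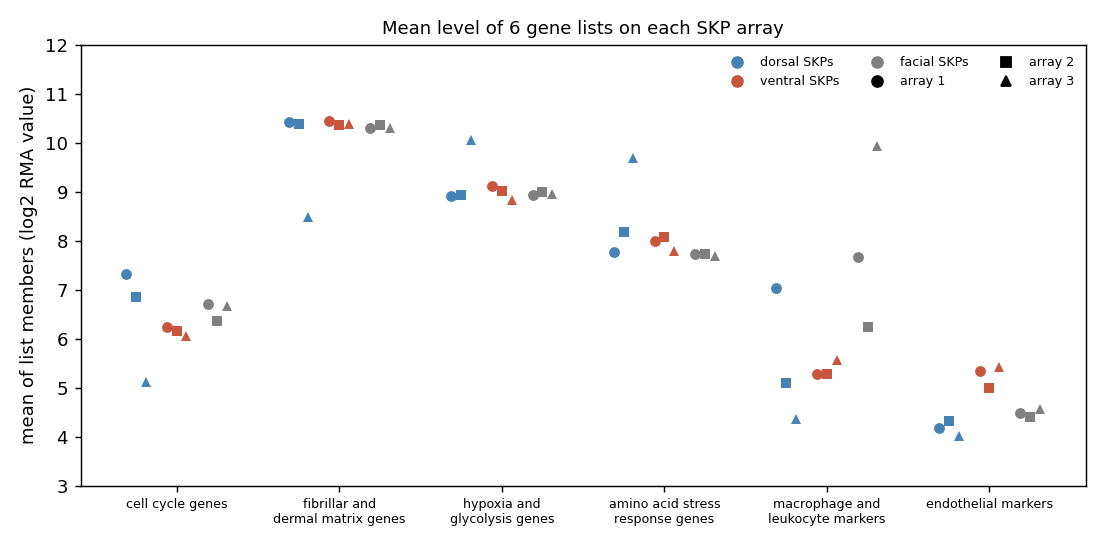
Mean level (log2 RMA value, y axis) of the measured members of 6 gene lists on each SKP array, coloured by region and shaped by array number. Dorsal array 3 (blue triangle) lies apart from the other dorsal arrays in the cell cycle, matrix, hypoxia and amino acid stress lists, macrophage markers vary within dorsal and facial SKPs, and the 3 ventral arrays lie above every dorsal array in the endothelial list.

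The remaining lists held at most 4 calls each. Over all genes 2.35% were higher in dorsal and 3.76% in ventral SKPs. Of 26 adhesion molecules Cadm1 was higher in dorsal SKPs (1.41, adjusted p = 0.0185) and Itga2 (-2.18, adjusted p = 0.0464), Icam1 (-1.02, adjusted p = 0.0119) and Cadm3 (-0.75, adjusted p = 0.0442) in ventral SKPs (median -0.12, against 1 dorsal call, 1 ventral call and a median of -0.14 without dorsal array 3). Cadm1 lost its call without ventral array 1 or 3 (adjusted p 0.0776 to 0.0845, and 0.0124 to 0.0845 over all alternatives), Itga2 without dorsal array 1, 2 or 3 or ventral array 1, 2 or 3 (adjusted p 0.0802 to 0.156, and 0.0078 to 0.156 over all alternatives), Icam1 without ventral array 1 (adjusted p 0.0579, and 0.00969 to 0.0646 over all alternatives), and Cadm3 without dorsal array 1, 2 or 3 or ventral array 1, 2 or 3 (adjusted p 0.0618 to 0.168, and 0.0224 to 0.168 over all alternatives). Of 15 bone markers Runx2, the master factor of osteoblasts, was higher in ventral SKPs (-0.73, adjusted p = 0.0119), and of 20 skeletal muscle markers Myh3, the embryonic myosin (-1.10, adjusted p = 0.0149). The dorsal mean of Myh3, 3.83, lay just below the dorsal background of 3.84, so the size of its difference is not resolved. Without dorsal array 3, 2 bone markers and 1 muscle marker were also called on the dorsal side. Runx2 lost its call without ventral array 1 or 3 (adjusted p 0.0577 to 0.06, and 0.0041 to 0.0838 over all alternatives), and Myh3 without ventral array 1 or 2 (adjusted p 0.0588 to 0.0714, and 0.00116 to 0.0989 over all alternatives). In limma's fit no call was made in 6 further lists, given here with the number measured, the median and how many were higher in dorsal and in ventral SKPs at an unadjusted p under 0.05. These were basement membrane genes (6, -0.25, 0 and 1), fat lineage markers (14, 0.12, 1 and 1), interferon-stimulated genes (23, -0.20, 0 and 3), cholesterol synthesis genes (18, -0.08, 3 and 0), MHC class II genes (10, -0.31, 0 and 2) and mast and lymphoid cell markers (14, 0.11, 1 and 1). Over all 14506 genes, 3113 had an unadjusted p under 0.05 in limma's fit, in either direction. Without dorsal array 3, 1 interferon-stimulated gene was called on the ventral side, and the medians of cholesterol synthesis genes and fat lineage markers were 0.11 and 0.18. The sex of the isolates was not compared.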

How the data were processed

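RNA of cultured cells was hybridised to Affymetrix Rat Gene 1.0 ST arrays. Per the labels, the authors processed the scans with RMA in Affymetrix Expression Console for core genes, and the deposited unit is log2 expression. Limma also appears in the submitters' processing notes, without a version. RMA subtracts background and equalises the distributions of arrays, so a shift of all genes in one region would not be seen. Array medians were 4.91 to 5.01, and no further scaling was applied.

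Of 29215 probe sets, 15310 carried exactly 1 gene symbol in the platform annotation, 323 several and 13582 none. Entrez identifiers matched 15279 of them to RefSeq's GRCr8 table, accessions matched 6, and 25 kept their old symbol. Among the probe sets of a gene (527 genes had several) the brightest on average was taken, giving 14506 genes, with no filter on low levels.

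Limma 3.58.1 (R 4.3.3) fitted the 4 group means on all 13 arrays (lmFit, eBayes), and dorsal minus ventral was tested two-sided with Benjamini-Hochberg adjustment over all genes. Each p-value sets the difference of the 2 regions against the spread between isolates within groups. That spread was pooled over the 4 groups, MSCs included, and moderated over genes. The script was tested on simulated data. Named genes were, for each direction, the 15 with the largest differences among called genes that differed by 1 log2 unit or more, did not overlap and had their higher mean above the 25th percentile of its group, up to 4 called members per list, and 18 fixed genes, of which 16 were measured. Wnt6, Rspo1, Dkk1, Nkd1, Cdh5, Adgrl4, Lama3, Efnb2, Epha2, Sema3a, Mmp14, Adamts5 and Loxl2 in the report, and the genes of the closing section other than Avpr1a and Dio2, were named after their values were seen, as were list members named without a call. The 3 genes most like each of 6 genes were taken by Pearson's r over the 9 SKP arrays. The 42 lists (848 genes, 709 measured) came from general knowledge. The members and lists were chosen with earlier results of these data known, and lists are described by counts and medians with no test. Alternatives were the fit of 6 arrays alone, array weights, an intensity trend, 2 filters on low levels (the second, at the 95th percentile of olfactory receptor genes, was added after the data were seen), 2 other scalings, the mean of probe sets, a macrophage marker covariate, a replicate block and leaving out each of the 6 arrays. Promoter windows came from RefSeq (GRCr8), and 11970 measured genes had one.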

Additional observations from a re-analysis of the deposited data

How the results depend on the processing

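The number of genes called moved with the choice of arrays and with their weights. A fit of the 6 dorsal and ventral arrays alone called 373 genes (108 higher in dorsal, 265 in ventral SKPs), and array weights called 1519 (646 and 873), with the lowest weight, 0.285, on dorsal array 3. With the replicate block 566 genes were called, 193 of them higher in dorsal SKPs. Leaving out 1 array gave 327 to 900 genes, 77 to 365 of them higher in dorsal and 235 to 555 in ventral SKPs, and 172 to 335 with a log2 difference of at least 1. The share of calls on the dorsal side was 38.5% in the full fit, 33.4% with array medians subtracted and 41.6% after a further quantile normalisation. The other alternatives gave 757 to 1005 genes. Of 127 called genes examined singly, 59 kept their call under each of the 16 alternatives in which the gene was tested, since the filters removed some genes. None of the 127 changed direction. The values of called genes did not overlap between regions, so leaving out 1 array could not change a direction. The fit of 6 arrays alone, the intensity trend, the filters and the replicate block leave each difference as it is. Of the genes not called, 4 changed sign. Sox2 was 0.12 with array weights and -0.22 to 0.20 without 1 array. Snai2 was 0.48 with array weights and -0.53 to 0.65 without 1 array. Crabp1 was 0.0298 with array weights and -1.31 to 0.49 without 1 array. Pitx1 was 0.12 with array weights, 0.0108 after a further quantile normalisation, 0.0013 with the macrophage marker covariate and -0.18 to 0.0896 without 1 array. The cause was not tested. Same-numbered dorsal and ventral arrays had correlations of -0.06, 0.05 and -0.05 in their deviations from the group means. Of 3 dorsal arrays, 1 correlated best with its own number. Deviations from means of 3 arrays cannot show whether isolates shared an animal, and the labels do not say whether the numbers pair them. Genes below or near background in one region have differences whose size is not resolved.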

Other observations

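Single called genes outside the lists are given here. They were picked after their values were seen, and no count over genes of their kinds was made. The angiotensin receptor Agtr2 was at 4.24, 5.17 and 4.42 in ventral and 2.57, 2.95 and 2.63 in dorsal SKPs (-1.89, SE 0.26, adjusted p = 0.00186), below background in the latter. The prostaglandin receptor Ptger1 was at 6.28, 6.38 and 6.06 in ventral and 4.92, 5.35 and 5.25 in dorsal SKPs (-1.07, SE 0.19, adjusted p = 0.00896), and the chemerin receptor Cmklr1 at 8.30, 8.01 and 8.07 in ventral and 5.52, 5.38 and 4.20 in dorsal SKPs (-3.10, SE 0.50, adjusted p = 0.00542). The opioid receptor Oprd1 was at 7.59, 8.22 and 7.58 in ventral and 6.60, 6.93 and 6.36 in dorsal SKPs (-1.17, SE 0.21, adjusted p = 0.0093). Oprd1 lost its call in a fit of the 6 arrays alone (adjusted p 0.0575, and 0.00341 to 0.0575 over all alternatives). On the dorsal side, beside Avpr1a, stood the substance P receptor Tacr1, at 5.44, 5.62 and 5.78 in dorsal against 4.41, 4.63 and 4.39 in ventral SKPs (1.14, SE 0.24, adjusted p = 0.0165). Tacr1 lost its call without ventral array 1 or 3 (adjusted p 0.0681 to 0.0708, and 0.0119 to 0.0708 over all alternatives). The thyroid hormone receptor Thrb was at 7.69, 7.83 and 8.41 in dorsal and 6.18, 6.48 and 6.44 in ventral SKPs (1.61, SE 0.34, adjusted p = 0.0166), higher in dorsal SKPs like the deiodinase Dio2, which activates the hormone. Thrb lost its call without ventral array 1 or 3 (adjusted p 0.0582 to 0.0722, and 0.00807 to 0.0722 over all alternatives), and Dio2 without ventral array 1 or 3 (adjusted p 0.0758 to 0.0845, and 0.00451 to 0.0871 over all alternatives).

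The following single genes, picked in the same way, were higher in ventral SKPs. The cerebellins Cbln4 and Cbln2, secreted synapse organisers, were at 6.10, 6.74 and 7.12 and 5.73, 5.59 and 5.09 in ventral against 3.47, 3.73 and 3.11 and 3.40, 3.98 and 3.99 in dorsal SKPs (log2 differences -3.22 and -1.68, adjusted p = 4.4e-05 and 0.00349). The postsynaptic adhesion protein Lrrc4 was at 5.07, 4.85 and 5.01 in ventral and 3.75, 3.93 and 3.80 in dorsal SKPs (-1.15, SE 0.12, adjusted p = 0.000329), and the vesicle trafficking protein Nsg2 at 7.81, 6.78 and 7.41 in ventral and 5.81, 5.84 and 5.31 in dorsal SKPs (-1.68, SE 0.27, adjusted p = 0.00468). Dorsal values of Cbln4 lay below the dorsal background of 3.84, and those of Cbln2 and Lrrc4 lay near it. The sizes of the differences of Cbln4, Cbln2 and Lrrc4 are thus not resolved. The glutamate transporter Slc1a1, among the genes most like Tbx5, was at 7.77, 7.95 and 7.77 in ventral and 5.18, 5.39 and 4.93 in dorsal SKPs (-2.66, SE 0.16, adjusted p = 6.17e-06). Facial SKPs had Slc1a1 at 5.32, 5.43 and 5.24 and Cbln4 at 3.26, 3.66 and 2.97, near the dorsal levels. The interleukin Il16 was at 8.55, 8.19 and 8.47 in ventral, 5.85, 5.87 and 5.07 in dorsal and 7.77, 7.75 and 7.68 in facial SKPs (-2.81, SE 0.19, adjusted p = 1.66e-05).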
